A study of Arabidopsis thaliana with 6 samples.

Results

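The events described here are single exons of Arabidopsis thaliana genes whose skipping was read in every library of the mac3a mac3b double mutant and in no library of the wild type Col-0. They were chosen from the deposited table of exon skipping by 3 conditions: 0 skipping reads in each of the 3 Col-0 libraries, at least 1 in each of the 3 mutant libraries, and at least 10 reads of both kinds (skipping plus inclusion) in each library. The conditions were met by 141 events in 139 genes, of 9772 single-exon events past the read minimum and 13023 skipping events of any size in the table. All libraries were poly(A) RNA from rosette leaves of 40-day-old plants that had not flowered, grown in short days (8 h light, 16 h dark) at 22 °C. The mac3a mac3b group (3 libraries) carries mutations in both MAC3 genes, and Col-0 (3 libraries) is its wild type. The labels give neither the mutant alleles, nor the number of plants behind a library, nor whether replicates came from separate plantings, so the p-values measure only the spread between these libraries.

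MAC3A and MAC3B are plant relatives of the yeast splicing factor Prp19, a ubiquitin ligase of the complex that activates the assembled spliceosome. An internal exon is skipped when the donor site (5′ splice site) of the exon before it is joined to the acceptor site (3′ splice site) of the exon after it. In plants skipping is a less common outcome than intron retention. Loss of an exon whose length is not a multiple of the codon size shifts the reading frame, which often exposes the transcript to nonsense-mediated decay, a pathway that removes mRNAs with early stop codons.

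Exons of 7 members are shown first as examples. SWEET4 and AT1G72530 have a high skipping share, and the myosin gene XI-I has most of its skipping reads in 1 library. PPOX and PSAO have many skipping reads at high coverage, and MAC3A is itself mutated. The very short exon of AT1G64355 was chosen after its values were seen. In each sequence the exon is in capitals and the 12 intron bases on each side are in lower case. Sequences run 5′ to 3′ on the gene's strand and are from RefSeq TAIR10.1.
SWEET4, exon 2 (chr3:10409456-10409492, minus strand): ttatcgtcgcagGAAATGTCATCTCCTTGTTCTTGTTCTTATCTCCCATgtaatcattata
AT1G72530, exon 3 (chr1:27313546-27313611, plus strand): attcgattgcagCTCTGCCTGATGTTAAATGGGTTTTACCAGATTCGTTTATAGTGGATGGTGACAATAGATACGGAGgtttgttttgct
XI-I, exon 25 (chr4:16006088-16006187, minus strand): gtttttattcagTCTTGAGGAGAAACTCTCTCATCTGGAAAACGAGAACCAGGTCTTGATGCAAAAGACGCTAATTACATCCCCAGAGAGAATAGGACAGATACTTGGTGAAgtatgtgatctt
PPOX, exon 2 (chr4:730407-730592, plus strand): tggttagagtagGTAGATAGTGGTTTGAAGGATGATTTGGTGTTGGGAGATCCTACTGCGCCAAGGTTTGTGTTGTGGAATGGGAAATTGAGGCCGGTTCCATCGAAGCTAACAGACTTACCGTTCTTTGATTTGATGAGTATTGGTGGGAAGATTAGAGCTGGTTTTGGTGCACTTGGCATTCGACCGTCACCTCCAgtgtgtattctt
PSAO, exon 2 (chr1:2641492-2641564, minus strand): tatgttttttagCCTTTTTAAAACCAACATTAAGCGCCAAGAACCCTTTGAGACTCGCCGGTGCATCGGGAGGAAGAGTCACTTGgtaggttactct
MAC3A, exon 11 (chr1:1229054-1229128, plus strand): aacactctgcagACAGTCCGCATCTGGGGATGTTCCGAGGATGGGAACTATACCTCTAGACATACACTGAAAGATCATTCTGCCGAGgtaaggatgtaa
AT1G64355, exon 2 (chr1:23886655-23886672, plus strand): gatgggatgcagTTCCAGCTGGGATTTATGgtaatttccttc
Exons are numbered here from the 5′ end of the gene, over all exons of its annotated transcripts. The files give no coordinates. Positions were found by matching the numbers and lengths of a gene's introns to the RefSeq models, which placed 136 of the 141 exons.

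Libraries held 80626787 to 108909613 unique reads over 13069 genes, and the lowest library of the leaf gene RBCS1A was at 8154 RPKM in the mutant and 5686 RPKM in Col-0. Of the other 4 leaf genes, LHCB2.1, CAT2 and RCA did not overlap between the genotypes. LHCB2.1 was at 3062 to 4555 RPKM in the mutant and 582 to 2281 RPKM in Col-0. CAT2 was at 195 to 506 RPKM in the mutant and 55.8 to 90.1 RPKM in Col-0. RCA was at 3597 to 5214 RPKM in the mutant and 2236 to 3424 RPKM in Col-0. CAB1 overlapped, at 15192 to 21007 RPKM in the mutant and 7786 to 20916 RPKM in Col-0. The share of all genes without overlap was not counted. RPKM is reads per kilobase of gene, scaled to library size. The mutated genes were lower in every mutant library than in any Col-0 library: MAC3B (AT2G33340) was at 8.98, 5.64 and 7.6 RPKM in the mutant and 35.4, 36.4 and 48.95 RPKM in Col-0, and MAC3A, a member, is given with the host genes below. Of 5 marker genes of roots and flowers, 4 were at or below 0.1 RPKM in all libraries, and AG, a floral organ identity gene, was at 1 to 1.05 RPKM in the mutant and 0.32 to 0.64 RPKM in Col-0. Mutant replicate 3 stood apart from the other libraries in skipping. It had a skipping read in 6096 of the 9772 events, against 4317 and 3518 in mutant replicates 1 and 2, and 3226 to 3484 in the Col-0 libraries. Each mutant library was higher than each Col-0 library (exact permutation test, two-sided, p = 0.1, the smallest that 3 against 3 allows). Every listed event had a skipping read in at least 1 library, so this count rests on the same reads that admitted the events. Of the 9772, 3502 had skipping reads in 1 mutant library alone and 1411 in 1 Col-0 library alone. The share of all reads of the 9772 events that were skipping reads was 2.39% ± 0.129 in the mutant and 2.54% ± 0.425 in Col-0 (SD, n = 3, exact permutation p = 0.7).

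The rule was met by 1.44% of the single-exon events past the read minimum. The same rule with the genotypes exchanged, 0 skipping reads in each mutant library and at least 1 in each Col-0 library, was met by 40 events, or 0.409%. Col-0 had more reads in general, with a median of 1789.5 reads of both kinds over all events past the read minimum, against 1353 in the mutant. Col-0 had at least as many reads of both kinds as the mutant in 111 of the 141 exons, and the mutant had at least as many as Col-0 in 2 of the 40. The same was not counted over all events. Among events that removed more than 1 exon, 30 of 2610 were skipped in all mutant and no Col-0 libraries, and 2 in all Col-0 and no mutant libraries. Since the rule used these reads, these counts describe the libraries and carry no test.

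Replicates that took no part in a choice gave a further reading of the same measure. Choosing on numbers 2 and 3 alone gave 446 events with skipping in both mutant and neither Col-0 library. In the libraries left out, mutant replicate 1 had a skipping read in 208 of them (46.6%) and Col-0 replicate 1 in 97 (21.7%). With numbers 1 and 3, 658 events were chosen, of which mutant replicate 2 had a skipping read in 186 (28.3%) and Col-0 replicate 2 in 89 (13.5%). With numbers 1 and 2, which leaves mutant replicate 3 out, 305 events were chosen, of which that library had a skipping read in 199 (65.2%) and Col-0 replicate 3 in 70 (23.0%). The left-out mutant library was the higher one each time, while Col-0 also skipped a part of every set. Over all 9772 events the mutant library of each number was the higher one too. Mutant replicates 1, 2 and 3 had a skipping read in 4317, 3518 and 6096 of these, and Col-0 replicates in 3484, 3226 and 3462. Mutant replicate 2 and each Col-0 replicate skipped a smaller part of the chosen set than of all events. Mutant replicates 1 and 3 skipped a slightly larger part. Median reads of both kinds in these sets were lower in the left-out mutant library than in the left-out Col-0 library, at 624 against 828.5, 734.5 against 851.5 and 789 against 920.

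**Figure D1:**
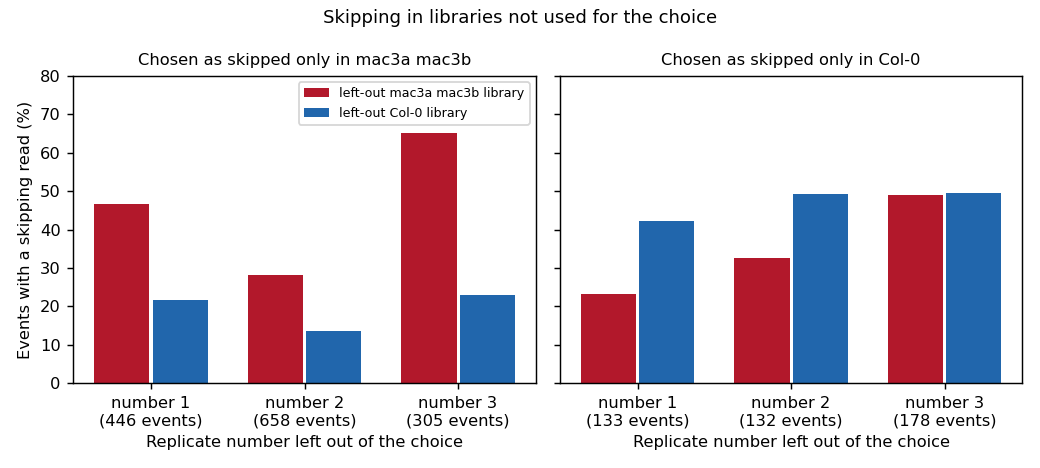
Percent of events with at least 1 skipping read (y axis) in the mutant library (red) and the Col-0 library (blue) of the replicate number left out of the choice (x axis). In events chosen as skipped only in the mutant (left), the left-out mutant library had 28.3% to 65.2% and the left-out Col-0 library 13.5% to 23.0%; in events chosen as skipped only in Col-0 (right), these were 23.3% to 48.9% and 42.1% to 49.4%.

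Events chosen in the same way as skipped only in Col-0 were fewer, 133, 132 and 178. The left-out mutant library skipped 23.3%, 32.6% and 48.9% of them, and the left-out Col-0 library 42.1%, 49.2% and 49.4%. For number 3 the 2 left-out libraries were close, at 87 and 88 of 178 events. Without both libraries numbered 3, a setting added after seeing the data, the rule was met by 308 events skipped only in the mutant and 182 skipped only in Col-0.

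Most of the 141 exons were skipped rarely. Their mean skipping share of reads of both kinds in the mutant had a median of 0.301%, with quartiles of 0.131% and 0.710% and a range from 0.000338% to 8.98%. A mean share of at least 1% was found for 23 exons, and of at least 5% for 5. Reads were few: 50 exons had at most 5 skipping reads over the 3 mutant libraries, 12 of these had 3, and 39 had at least 2 skipping reads in each mutant library. The share went with depth, with a Spearman correlation of −0.85 between mean share and mutant reads over 136 exons, which share libraries; an exon with few reads cannot show a low share above 0. The mutant libraries differed among themselves. Replicate 3 gave the highest share in 86 exons, replicate 1 in 33 and replicate 2 in 22, and in 79 exons the highest share was at least 3 times the lowest. The median share was 0.237% in mutant replicate 1, 0.178% in replicate 2 and 0.374% in replicate 3.

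A count of 0 in Col-0 allows a share of up to 3 reads in its summed reads, and such limits cover counting error only. The median of that limit over the 141 exons was 0.0842%. Since the rule asked for 0 reads in Col-0, the limits below give the depth behind that 0 and are no test of a difference.

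**Figure D2:**
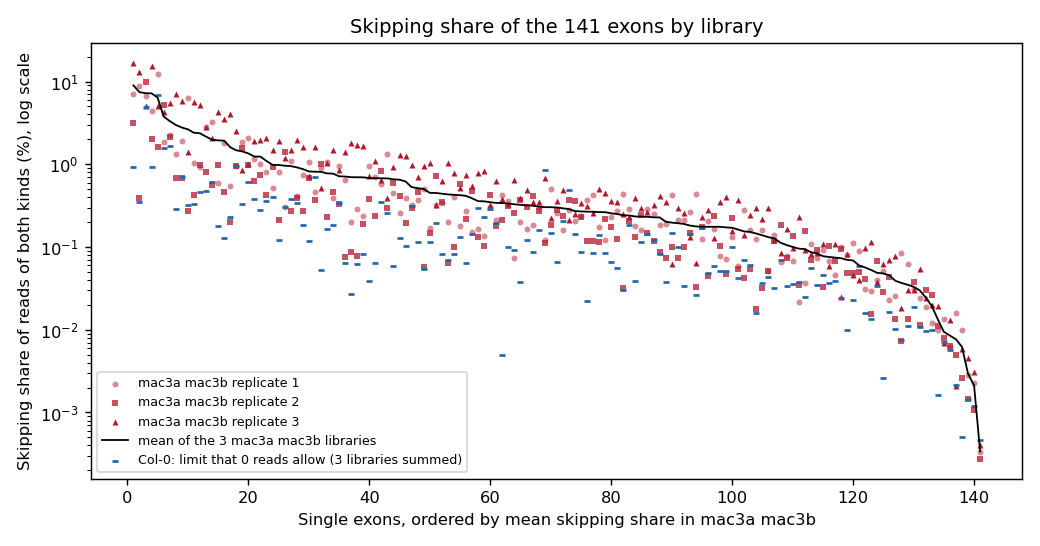
Skipping share in percent of reads of both kinds (y axis, log scale) for the 141 exons in order of their mean share in the mutant (x axis); points are the 3 mutant libraries, the line is their mean and blue dashes mark the share that 0 reads in Col-0 allow. Mean shares run from 8.98% to 0.000338%, and triangles (mutant replicate 3) are the highest point in 86 exons.

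The most reads belonged to PTAC16 (AT3G46780), a protein of the plastid transcription complex, whose exon 2 of 5 is 468 bases long and coding. It had 101, 61 and 92 skipping reads in mutant replicates 1, 2 and 3, of 23443, 28824 and 24425 reads of both kinds, against 0 of 31220, 19770 and 10111 in Col-0. Its mutant shares were 0.431%, 0.212% and 0.377%, and the 0 reads in Col-0 allow up to 0.00491%. PPOX (AT4G01690), a protoporphyrinogen oxidase of tetrapyrrole synthesis, had 24, 9 and 18 skipping reads of 2550, 2381 and 2485 in the mutant, against 0 of 3549, 2776 and 1457 in Col-0. Its skipped exon 2 of 10 has 186 bases, a multiple of 3, and its mean share in the mutant was 0.681% ± 0.284 (SD, n = 3). AT2G42130, a plastid lipid-associated protein, had 13, 15 and 8 skipping reads of 1428, 1490 and 1557 in the mutant and 0 of 2398, 2151 and 1200 in Col-0. In PTAC16, PPOX and AT2G42130 no single library held most of the reads.

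AT1G14270, a membrane protease of the CAAX family, was 1 of 2 genes with 2 such exons. Its exon 3 of 10 had 13, 4 and 21 skipping reads of 1876, 1666 and 1901 in the mutant and 0 of 1965, 1554 and 1183 in Col-0. Its exon 7 had 9, 1 and 19 skipping reads of 1413, 1325 and 1339 in the mutant and 0 of 1968, 1614 and 1080 in Col-0. Both were lowest in mutant replicate 2 and highest in replicate 3. AT2G03420, of unknown function, rested on 1 library, with 6, 2 and 39 skipping reads of 3000, 2320 and 2157 in the mutant and 0 of 5117, 3147 and 2779 in Col-0.

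At very high coverage the shares were small. PSAO (AT1G08380), a subunit of photosystem I, had 19, 7 and 11 skipping reads of 189132, 264800 and 185725 in the mutant and 0 of 282107, 218903 and 84230 in Col-0, a mean mutant share of 0.00620% ± 0.00371 (SD, n = 3). PMDH2 (AT5G09660), a peroxisomal malate dehydrogenase, had 13, 12 and 21 skipping reads of 25080, 41449 and 33354 in the mutant and 0 of 36521, 44956 and 32714 in Col-0, a mean share of 0.0479% ± 0.0173 (SD, n = 3). The 0 reads in Col-0 allow up to 0.000513% for PSAO and 0.00263% for PMDH2.

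The highest shares came from exons with few reads. ABCC11 (AT1G30420), an ABC transporter, had 1, 1 and 3 skipping reads of 14, 32 and 18 in the mutant and 0 of 87, 120 and 117 in Col-0, a mean mutant share of 8.98% ± 6.95 (SD, n = 3). Its exon 14 of 27 has 107 bases. SWEET4 (AT3G28007), a sugar transporter, had 12, 1 and 15 skipping reads of 135, 253 and 115 in the mutant and 0 of 175, 517 and 161 in Col-0, at shares of 8.89%, 0.395% and 13.0%. Mutant replicate 2, which had the most reads of this gene, had by far the lowest share. Its 37-base exon 2 is shown above, and its loss would shift the frame.

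AT1G72530, named in the annotation as a plastid developmental protein, had 3, 2 and 12 skipping reads of 68, 100 and 79 in the mutant and 0 of 109, 130 and 84 in Col-0 (7.20% ± 7.02, SD, n = 3). Its 66-base exon 3 of 4 keeps the frame when lost. XI-I (AT4G33200), a class XI myosin motor, had 3, 2 and 12 skipping reads of 228, 296 and 172 in the mutant and 0 of 340, 377 and 338 in Col-0. In AT1G72530 and XI-I alike, mutant replicate 3 held 12 of the reads.

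MLO10 (AT5G65970), a membrane protein of the MLO family, had 1, 2 and 1 skipping reads of 15, 20 and 20 in the mutant and 0 of 21, 21 and 19 in Col-0. GSTZ2 (AT2G02380), a zeta-class glutathione transferase, had 2, 1 and 1 of 16, 62 and 20 in the mutant and 0 of 13, 20 and 11 in Col-0. For these genes 0 reads in Col-0 still allow 4.92% and 6.82%, close to the mutant means of 7.22% and 6.37%. The rest of the 12 highest mean shares, 2.37% to 3.77%, belonged to AT1G13940, XBAT32 (a ubiquitin ligase), XI-I, AT2G22530, AT4G39955, AT1G08910 and AT5G50780. Each of these had 1 or 2 skipping reads in at least 1 mutant library.

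GSTZ2, ABCC11 and MLO10 were also the members nearest to the read minimum, with 11, 14 and 15 reads in their lowest library. Outside it lay 5 events that met the conditions on skipping reads, among them AT2G04235 with 4, 6 and 6 skipping reads of 32, 34 and 9 in the mutant and 0 of 35, 16 and 25 in Col-0, AT3G24360 with 1, 3 and 1 of 13, 23 and 6 in the mutant and 0 of 15, 18 and 20 in Col-0, and AT2G05655 with 3, 2 and 4 skipping reads and no inclusion read in the mutant and 1 read of either kind in Col-0. Another 85 events missed the rule by a single Col-0 skipping read. The highest mutant means among these were 13.2% in SQS2, 7.13% in BETA-OHASE 2 and 6.95% in AT4G40000.

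Of the gene lists examined, 5 held 1 member each. In the MOS4-associated complex, the complex that MAC3A and MAC3B belong to, 3 of 11 genes had a single-exon event past the read minimum and the member was MAC3A (AT1G04510). Its exon 11 of 18 had 2, 1 and 1 skipping reads of 187, 148 and 140 in the mutant and 0 of 899, 848 and 784 in Col-0, a mean share of 0.820% ± 0.217 (SD, n = 3). MAC3A is mutated in this group. How reads common to MAC3A and its paralog MAC3B were assigned is not given in the sources used here.

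Among 17 clock genes, 6 had an event and the member was GI (AT1G22770), a clock and flowering-time protein, with 1, 1 and 6 skipping reads of 530, 1364 and 1733 in the mutant and 0 of 1628, 3543 and 2749 in Col-0. In photorespiration (9 of 10 genes with an event) it was SHM1 (AT4G37930), the mitochondrial serine hydroxymethyltransferase, with 4, 7 and 10 skipping reads of 39976, 63293 and 52312 in the mutant and 0 of 64780, 82291 and 39825 in Col-0. The mean mutant shares were 0.203% ± 0.137 in GI and 0.0134% ± 0.00498 in SHM1 (SD, n = 3), and the 0 reads in Col-0 allow up to 0.0379% and 0.00161%.

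In the Calvin cycle (16 of 18 genes with an event) the member was RPE (AT5G61410), ribulose-phosphate epimerase, with 1, 1 and 2 skipping reads of 16209, 15751 and 15406 in the mutant and 0 of 24215, 17536 and 10475 in Col-0. Among light-harvesting genes (6 of 18) it was LHCA4 (AT3G47470), an antenna protein of photosystem I, with 1 skipping read each of 301209, 362872 and 245970 in the mutant and 0 of 334547, 225172 and 88845 in Col-0. LHCA4 had the lowest share of all members, 0.000338%, below the 0.000463% that 0 reads in Col-0 allow. The lists of flowering genes (7 of 20 with an event) and SR splicing factors (10 of 18) held 0 members. None of the 7 lists held an event skipped only in Col-0. Each list held 5 to 37 events past the read minimum, too few to compare with the 1.44% and 0.409% of all events that met the 2 rules. FLM, the floral repressor named in the study's title, was not among the member genes.

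The skipped exons were mostly coding, as were single-exon events in general. Of the 136 placed exons, 124 (91.2%) were coding over their whole length, against 86.5% of all 9195 placed events. Their length had a median of 75.5 bases with quartiles of 55 and 107.75 bases, against a median of 88 bases with quartiles of 62 and 130 bases over all events. Exons longer than 150 bases were 16 (11.8%), against 18.98% over all events, and exons of up to 50 bases were 23 (16.9%), against 14.4%. Among the coding ones, 68 of 124 (54.8%) had a length divisible by 3, against 43.9% of all coding events, 45.8% of those read in 1 or 2 mutant and no Col-0 libraries, 27.6% (8 of 29) of those skipped only in Col-0 and 41.2% of those skipped in all Col-0 libraries. The 141 exons also had more reads, with a median of 2970 in the mutant and 3562 in Col-0 over the 3 libraries, against 1353 and 1789.5 over all events. Among events with at least the median reads of the members, 48.3% of coding exons had a length divisible by 3 and the median length was 89 bases. These features were not tested.

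**Figure D3:**
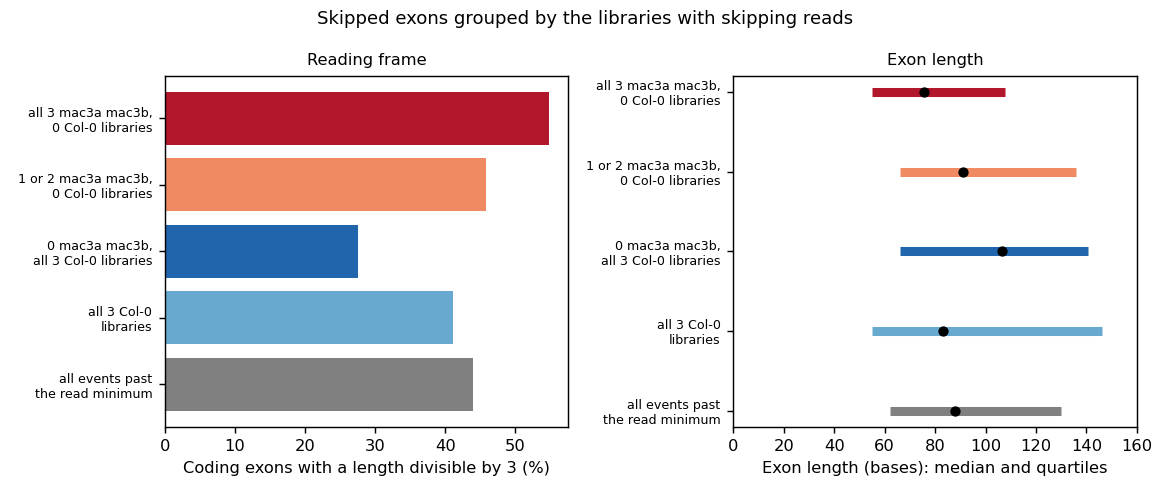
Percent of coding exons with a length divisible by 3 (left) and exon length in bases (right, dot for the median, bar for the quartiles) by the libraries in which skipping was read. Exons skipped in all mutant and no Col-0 libraries stand at 54.8% and 75.5 bases, all events past the read minimum at 43.9% and 88 bases.

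Skipping of these exons is rarely annotated. A RefSeq transcript that lacks the exon existed for 3 of 136 (2.21%), those of AT1G49360, AT2G40316 and FZL. The share was 10.9% of all events and 53.9% of the events skipped in all Col-0 libraries. It was 3.94% of events with at least the median reads of the members. In events read in 1 or 2 mutant and no Col-0 libraries it was lower still, 0.759%, so it does not set the members apart. The splice sites were near those of other events. The skipped exon had a GT donor in 97.1% and an AG acceptor in 98.5%, against 97.2% and 95.5% over all events. A base-frequency score, in which a higher value means letters more common at sites of all events, gave the exon's own donor a median of 6.43, against 6.61 over all events and 5.67 in events skipped in all Col-0 libraries. For the exon's own acceptor the medians were 7.09, 6.98 and 5.64. The last exon base was G in 92 of 136 (67.6%), against 71.2% over all events. It is not G in SWEET4, XI-I and PPOX above, and it is G in AT1G72530, PSAO, MAC3A and AT1G64355. The introns before and after the exon had median lengths of 98 and 104 bases, against 104 and 103 bases over all events. The second exon of the gene was the skipped one in 39 (28.7%), against 24.3%.

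Other skipping touched the same exons. In 48 of the 141, the exon was also removed together with a neighbour in a multi-exon event of the table, and in 35 of the 48 those events too had 0 reads in Col-0. Another single-exon event of the same gene was listed for 93. These counts were not made over all single-exon events, so they do not set these exons apart from events in general.

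Retention of the introns beside the skipped exons was read from the intron table, which the rule did not use. Retention is the average depth over the intron as a percent of intron plus exon depth. Across 272 introns, 203 (74.6%) rose in the mutant (limma adjusted p under 0.05) and 0 fell, against 62.3% of all 94773 introns tested that rose and 0.0538% that fell. With the replicate number as a block 199 rose and 0 fell, against 61.9% and 0.0528% of all introns. Median retention beside the exons was 1.67%, 1.60% and 2.13% in mutant replicates 1, 2 and 3 and 0.414%, 0.339% and 0.362% in the Col-0 libraries, so the groups did not overlap. Over all introns they did not overlap either, at 1.56%, 1.62% and 1.76% in the mutant and 0.259%, 0.215% and 0.155% in Col-0. The median log2 change was 1.93 beside the exons and 1.83 over all introns. The introns before and after the exon gave like counts, 102 and 101 of 136 each.

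Other introns of the same genes rose in 726 of 1131 (64.2%), with a median retention of 0.963% ± 0.143 in the mutant and 0.131% ± 0.0239 in Col-0 (SD, n = 3). Introns beside all other single-exon events rose in 66.6% of 17211, with 1.93% ± 0.224 and 0.339% ± 0.0805. Introns beside the members had a higher median exon depth (1135) than other introns of these genes (883) or all introns (417). The part of depth in these counts was not tested. Across the 136 exons the mean skipping share had a Spearman correlation of 0.60 with the mean gain in retention of its 2 introns. These points share libraries, and both measures are shares that vary with depth.

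**Figure D4:**
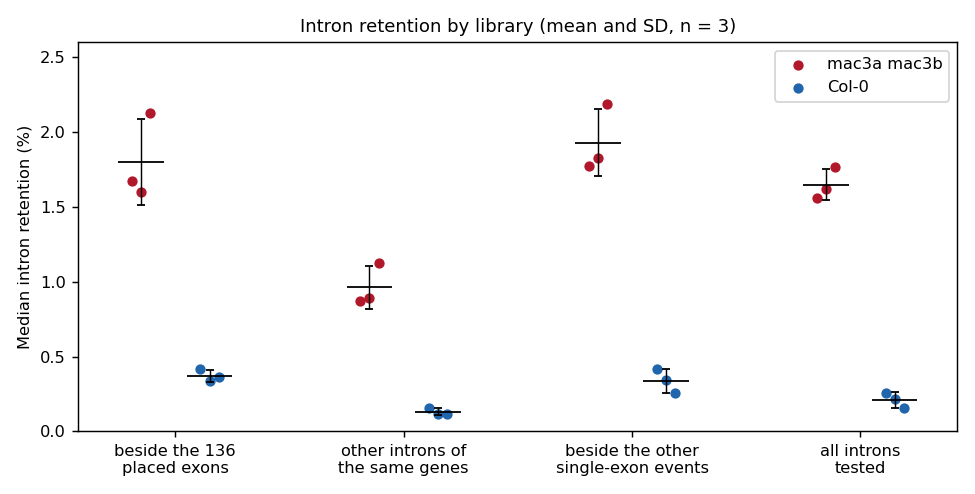
Median intron retention in percent (y axis) in each mutant (red) and Col-0 (blue) library for introns beside the 136 placed exons, other introns of their genes, introns beside the other single-exon events and all introns tested; lines and bars give mean and SD (n = 3). Beside the exons the mutant libraries lie at 1.60% to 2.13% and the Col-0 libraries at 0.339% to 0.414%. Over all introns they lie at 1.56% to 1.76% and 0.155% to 0.259%.

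The largest gain in percentage points was in BGLU6 (AT1G60270), a beta-glucosidase, in the intron after exon 2 (chromosome 1, 22223928 to 22223997). It was retained at 13.6%, 11.4% and 24.6% in the mutant and 0.469%, 0.0618% and 0.0198% in Col-0 (log2 change 5.19, SE 0.51, limma adjusted p 0.000958). The intron before that exon (22224062 to 22224128) stood at 26.8% ± 9.48 in the mutant and 12.2% ± 3.09 in Col-0 (SD, n = 3, limma adjusted p 0.0384). That call was lost without mutant replicate 1 (0.0597) or 3 (0.113), without Col-0 replicate 1 (0.101) or 2 (0.0888), and with a pseudocount of 0.05 (0.0647). Its range over the alternatives was 0.0343 to 0.113.

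Next came MAK10 (AT2G11000), an acetyltransferase subunit, whose intron before the skipped exon (chromosome 2, 4347561 to 4347632) was retained at 14.4%, 7.65% and 30.6% in the mutant and 2.19%, 1.60% and 0.730% in Col-0 (limma adjusted p 0.00337). In AT1G14270 the intron after exon 7 (chromosome 1, 4875516 to 4875590) rose to 18.1% ± 1.08 in the mutant, against 2.45% ± 1.13 in Col-0 (SD, n = 3, limma adjusted p 0.00142). In SNZ (AT2G39250), a floral repressor of the AP2 family, the intron before the skipped exon 2 (chromosome 2, 16390473 to 16390554) rose to 16.7% ± 4.43 in the mutant, against 1.86% ± 1.22 in Col-0 (SD, n = 3, limma adjusted p 0.00202). In each of these introns the lowest mutant library exceeded the highest Col-0 library. They were named for their large gains, and 62.3% of all introns rose. Introns without overlap were not counted over all introns.

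In GSTZ2 the intron after the exon (chromosome 2, 627750 to 627839) stood at 24.5% ± 6.41 in the mutant and 11.8% ± 0.336 in Col-0 (SD, n = 3, limma adjusted p 0.0437). That call held in 1 of 9 alternatives, without mutant replicate 3 (0.0326), and the limma adjusted p ran up to 0.134 over them. Among other genes shown above, the intron before the skipped exon of SWEET4 rose to 5.43% ± 0.816 in the mutant, against 0.359% ± 0.296 in Col-0 (limma adjusted p 0.00138), and that of PTAC16 to 0.591% ± 0.0175, against 0.0970% ± 0.0207 (limma adjusted p 0.00157; SD, n = 3). In PTAC16 the intron after the exon did not pass, at 1.31% ± 0.0790 in the mutant and 0.702% ± 0.178 in Col-0 (limma adjusted p 0.0707). In MAC3A, intron 10, directly before the skipped exon, was at 3.20%, 6.0% and 3.6% in the mutant and 0.0175%, 0.0114% and 0.0193% in Col-0 (limma adjusted p 0.000958).

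Expression of the host genes was read from the expression table. Of 139 genes, 138 had a mean of at least 1 RPKM and were tested. MLO10 was not, at 1.11 ± 0.240 RPKM in the mutant and 0.877 ± 0.0252 RPKM in Col-0 (SD, n = 3). With limma, 0 host genes passed in either direction, against 0.105% of all 17163 genes (0.0524% higher, 0.0524% lower). The unadjusted limma p was under 0.05 in 15 of the 138 host genes and in 1893 of the 17163. On the unique reads edgeR called 0 of the host genes and 0 of all 13020 genes. Its unadjusted p was under 0.05 in 17 of the 138 host genes and in 1246 of the 13020. DESeq2 called 7 host genes higher and 3 lower, or 7.25%, against 3.55% of all 13052 genes (2.16% higher, 1.39% lower). Same-numbered libraries deviated together in expression, and with the replicate number as a block 12 of the 138 passed, 9 higher and 3 lower, or 8.70%, against 4.52% of all genes (2.7% higher, 1.82% lower). With the block and values rescaled to the library sum, 9 were higher and 4 lower, or 9.42%, against 6.72% of all genes (3.05% higher, 3.66% lower). In whole leaves, fewer cells that express a gene and less RNA per cell cannot be told apart. Host genes were expressed more strongly than genes in general, with a median of 29.1 RPKM against 10.6 RPKM. Their median log2 fold change was 0.06, against 0.01 over all genes, on the log2(RPKM + 1) scale, which understates the change of weak genes.

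The largest rise with the block was that of scpl10 (AT2G23000), a carboxypeptidase-like acyltransferase relative, at 20.7, 19.9 and 5.49 RPKM in the mutant and 2.26, 4.2 and 0.48 RPKM in Col-0 (log2 fold change 2.29, blocked limma adjusted p 0.0177, unblocked 0.272). CIPK1 (AT3G17510), a kinase regulated by calcium sensors, was at 29.7, 18.5 and 71.3 RPKM in the mutant and 9.45, 7.61 and 16.2 RPKM in Col-0 (1.60, blocked 0.0255, unblocked limma adjusted p 0.337). In scpl10 and CIPK1 alike every mutant library lay above every Col-0 library. They were named for their large rises, and genes without overlap were not counted over all genes. BGLU6, AT1G55960 and AT1G65950 had log2 fold changes of 1.43, 1.41 and 1.32 (blocked limma adjusted p 0.0275, 0.0221 and 0.0210, unblocked 0.159, 0.137 and 0.0764).

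The 3 falls with the block were those of MAC3A, ABCC11 and AT4G33480. MAC3A was at 8.87, 6.31 and 5.92 RPKM in the mutant and 22.0, 16.7 and 20.2 RPKM in Col-0 (log2 fold change −1.37, blocked limma adjusted p 0.0243, unblocked 0.100). ABCC11 was at 1.49, 2.32 and 1.83 RPKM in the mutant and 3.90, 4.03 and 4.35 RPKM in Col-0 (−0.83, blocked limma adjusted p 0.0464, unblocked 0.191). AT4G33480, a BTB domain protein, had −0.82 (blocked limma adjusted p 0.0344, unblocked 0.209). ABCC11 and MAC3A thus had skipping reads in the mutant from fewer reads of the gene than in Col-0, whereas PTAC16 was at 955 ± 45.6 RPKM in the mutant and 612 ± 326 RPKM in Col-0 (SD, n = 3, limma adjusted p 0.582).

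**Figure D5:**
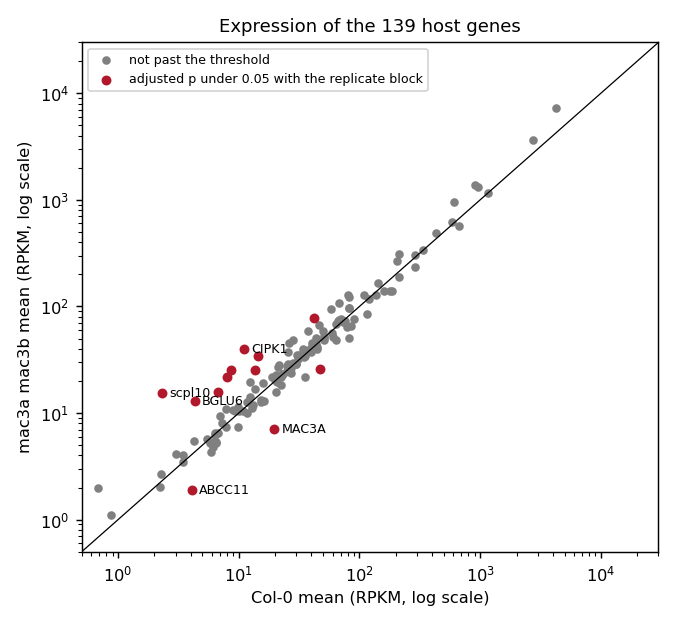
Mean expression of the 139 host genes in the mutant (y axis) and Col-0 (x axis), in RPKM on log scales; the line marks equal values and red points are the 12 genes with a limma adjusted p under 0.05 in the fit with the replicate block. MAC3A and ABCC11 lie below the line, and scpl10, CIPK1 and BGLU6 above it.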

How the data were processed

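Per the submitters' processing notes, the tools named are Trimmomatic, Bowtie2 and DESeq2 and the build is TAIR10; their roles are not given in the sources used here, and RackJ stands in the names of the splicing tables. Deposited for each event are counts of reads that skip or include the exon, and for each gene counts of unique reads, as the authors made them. The deposited intron table holds average read depth, a coverage signal and not counts, of introns and their exons. The expression values deposited by the authors were read as RPKM, reads scaled to gene length and library size: multiplied by length they were proportional to the unique reads within 1% in at least 97.3% of the genes compared. No per-sample column was left without a sample (0).

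Members and lists were chosen with earlier results of these data known. Skipping reads of the members are described without a test. Each library's number of events with skipping, and its share of skipping reads, over all single-exon events were compared by exact permutation. Introns with an intron plus exon depth of at least 10 in every library were tested with limma 3.58.1 in R 4.3.3 on log2 of intron over exon depth, each + 0.5, and genes averaging 1 RPKM or more on log2(RPKM + 1) with a variance trend. P-values were adjusted by Benjamini-Hochberg over each whole table, at 0.05. edgeR 4.0.16 and DESeq2 1.42.0 on unique reads were alternatives.

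Deviations of same-numbered libraries from their genotype means correlated in expression with r of 0.62, 0.78 and 0.43, so blocked fits stand beside expression results; what a number marks is not labelled. No replicate pair agreed within sampling noise (chi-square per degree of freedom of at least 338). Exons were placed on RefSeq TAIR10.1 in genes whose intron numbers and lengths all matched (18117 of 18772 genes). Donor scores used 3 exon and 6 intron bases, acceptor scores 12 intron and 3 exon bases. Exons named are the 12 with the highest mean share, the 8 with the most reads, list members and those nearest the read minimum. Introns named are the 6 largest gains past the threshold, and genes the 5 largest changes each way. Others named were chosen after their values were seen.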

Additional observations from a re-analysis of the deposited data

How the results depend on the processing

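With at least 2 skipping reads in each library, 39 events were skipped only in the mutant and 8 only in Col-0, and with at least 3 there were 20 and 2. Restricted to events with at least as many reads in the genotype without skipping, 111 and 2 were left. Col-0 had more reads in general (median 1789.5 against 1353 in the mutant over all events). That restriction therefore removes mainly events skipped only in Col-0, and its 2 counts cannot be compared. Leaving out 1 library at a time, which loosens the rule, gave 186 to 569 events for the mutant and 57 to 102 for Col-0. Without both libraries numbered 3, chosen after seeing the data, the counts were 308 and 182. Leaving aside the restriction on reads, whose 2 counts cannot be compared, the mutant count was the higher one in each of these settings. Read minimums of 0, 20 or 60 gave 134 to 146 and 32 to 47. The median share ran from 0.215% without mutant replicate 3 to 0.324% without replicate 2. Introns beside the exons that rose numbered 163 to 204 over the alternatives, 199 with the replicate block, and 0 fell in any. Of all introns, 62.3% rose in the main fit and 61.9% with the block. The share of all introns was not counted in the other alternatives. In introns same-numbered libraries correlated with r of 0.06, 0.12 and 0.05, too low to pair them. Host genes that passed numbered 9 higher and 3 lower with the replicate block, 9 and 4 with the block and rescaled values (added after seeing the data), and 7 and 3 with DESeq2, against 4.52%, 6.72% and 3.55% of all genes in these fits. They numbered 0 in the other alternatives, in each fit without 1 library too, so the calls with the block were not tested against single libraries. Few skipping reads per exon limit all shares.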
